A study of Homo sapiens with 18 samples.

Results

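The genes described here changed in the same direction between Holoclone and Paraclone cells of 2 human pancreatic ductal adenocarcinoma (PDAC) lines, Panc1 and Panc89. A gene was included if all 3 Holoclone libraries lay above all 3 Paraclone libraries in both lines, or all below in both. This held for 2620 of 40266 gene symbols, 2040 of them higher and 580 lower in Holoclone cells. Of these, 2398 also passed the filter used for tests, at least 1 TPM (transcript abundance scaled to a fixed total per library) in at least 3 libraries, which left 16093 genes in all. They comprised 1869 genes higher and 529 lower, which is 11.6% and 3.29% of the genes tested. The remaining 222 genes, 171 higher and 51 lower, were too low to be tested. Values are log2(TPM + 1) unless given as TPM, and the shared change is the mean of the 2 Holoclone minus Paraclone differences, one per line.

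Panc1 is a mesenchymal-like line from a primary tumour and Panc89 an epithelial line from a lymph node metastasis. Each was sequenced as parental cells, as Holoclone cells and as Paraclone cells, with 3 libraries from separate passages in each of the 6 groups, all untreated. Holoclone and Paraclone cells had been grown from single cells, and each type is represented by 1 clone per line. The 3 libraries therefore repeat the culture of a clone and do not sample further clones. All p-values below measure the spread between passages, and whatever set these 4 clones apart for other reasons cannot be told apart from the Holoclone or Paraclone type.

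The terms come from the shape of colonies grown at low density. Holoclones are compact round colonies whose cells are held together and renew themselves, and paraclones are loose colonies of spread cells with limited renewal. For these clones, the authors reported the fastest migration in Panc89 Holoclone cells and no difference in migration among the Panc1 variants. Panc1 Holoclone and Paraclone cells formed similar numbers of colonies in their hands, though mostly of their own type, and Panc89 Paraclone cells fewer than Panc89 Holoclone cells. Growth was reported as faster in the Holoclone than in the Paraclone cells of both lines. From the same RNA, the authors' gene set analysis gave more stemness to the Holoclone cells and more EMT activity to the Paraclone cells of both lines. In carcinoma lines the distinction between holoclones and paraclones is used as a reading of stem cell traits. It overlaps with epithelial-mesenchymal transition (EMT), in which cells loosen their junctions and remodel their adhesion to the matrix.

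The libraries were alike in some general features but not in the number of genes detected. Mitochondrially encoded transcripts made up 5.62% to 9.44% of the TPM, between 12932 and 14199 genes reached 1 TPM, and the correlation between libraries of a group ranged from 0.954 to 0.992. Genes at 1 TPM were more numerous in Holoclone than in Paraclone libraries of each line, without overlap. They numbered 13369 to 13672 against 12932 to 13212 in Panc1, and 13634 to 14199 against 13360 to 13578 in Panc89. The 100 most abundant genes held 29.4% to 30.3% against 31% to 36.4% of the TPM in Panc1, with overlap in Panc89. The part of these in the number of higher genes was not tested. KRT8, KRT18 and KRT19, keratins of duct epithelium, were expressed in every library, the lowest value being 183 TPM for KRT19. INS and SST were at 0 everywhere, and the leukocyte marker PTPRC did not exceed 0.956 TPM. CD68, a lysosomal protein used as a macrophage marker, was at a mean of 60.2 TPM in Panc1 Holoclone against 134 TPM in Paraclone cells, and at 21.7 against 52.5 TPM in Panc89, and so itself met the rule as a lower gene; the part of this in other results was not tested. Because whole cultures were sequenced, fewer cells of a kind and less RNA per cell cannot be told apart.

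Agreement between the lines was partial. Of the 16093 genes tested, replicates did not overlap for 5883 higher and 2379 lower in Panc1 Holoclone cells. In Panc89 Holoclone cells 4155 were higher and 2416 lower without overlap. Of the genes without overlap in both lines, 2398, or 64.8%, moved the same way and 1300 moved opposite ways. Of the latter, 738 were higher in Panc1 and lower in Panc89 Holoclone cells. An excess of higher genes in each line by itself puts more genes the same way, and the number so placed was not computed. Holoclone levels were also shifted as a whole. The median difference over all genes tested was 0.191 in Panc1 and 0.0923 in Panc89, and the median shared change was 0.165.

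This shift weighed on the balance of directions. When libraries were rescaled by the upper quartile of the TPM, the median shared change fell to 0.0217, and 1070 genes higher and 956 lower met the rule. With median-of-ratios scaling, which sets the typical gene equal across libraries, 930 genes were higher and 1063 lower. In all, 904 of the higher and 520 of the lower genes met the rule under all 3 scalings. Of 117 genes selected for description, 94 did so, and 23 did not. The latter include ATM, CCN2, CTNND1, EGR1, FAU, FOXA2, HES6, HSPA5, MARVELD2, MTHFD2, NDUFS3, NFE2L2, PSAT1, RPL7L1, RYK, SLC16A1, SLC3A2, SNHG1, TET3 and ZNF880, each of which met it only with the TPM as deposited. Some genes named below lie outside the 117. Of these, ASH1L, BRAF, COL6A2, HERPUD1, KDM6A and SERPINB9 did not meet the rule under all 3 scalings, nor did RABL6 and DMAC2L. The number of genes that moved opposite ways was 1372 and 1371 after the rescaling, and the share that moved the same way was 59.6% and 59.2%. The larger number of higher than lower genes thus holds for the TPM as deposited and, by a small margin, for the upper quartile, and it turns around with the median of ratios.

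**Figure D1:**
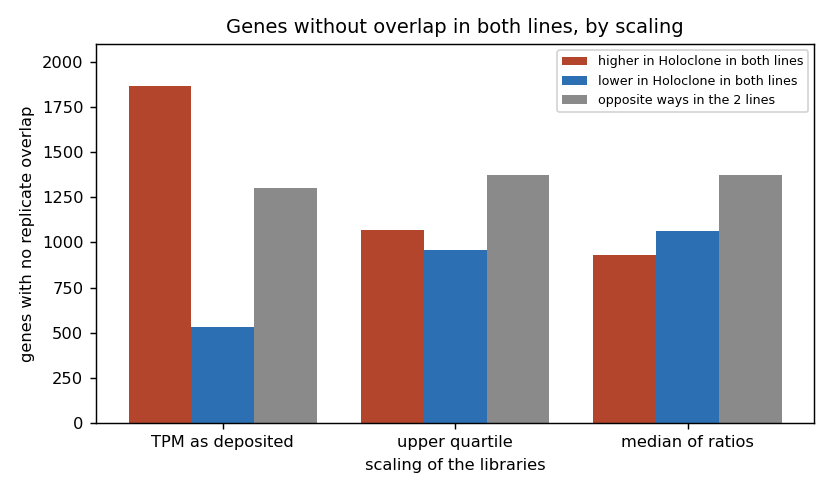
Number of genes tested whose 3 Holoclone and 3 Paraclone libraries did not overlap in either line, for 3 ways of scaling the libraries. Red bars count genes higher and blue bars genes lower in Holoclone cells of both lines, and grey bars genes that moved opposite ways. The red bar falls from 1869 to 1070 and 930, the blue bar rises from 529 to 956 and 1063, and the grey bar stays between 1300 and 1372.

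The test was a limma fit across all 16093 genes, with p-values adjusted by Benjamini-Hochberg and a threshold of 0.05. It called the shared change of 46.0% of all genes, 33.0% higher and 13.0% lower in Holoclone cells. In the single lines 37.3% of genes were called in Panc1 and 35.7% in Panc89, and 7.54% were called higher and 2.09% lower in both. These last counts, 1214 and 336 genes, became 619 and 619 with upper quartile scaling and 538 and 700 with the median of ratios. Since the rule was applied to the same differences, the calls among its genes only describe them: 1852 of 1869 higher and 521 of 529 lower genes had a called shared change, and 1109 and 298 were called in each line separately. The test treats the passages of a clone as replicates. When each cell variant was counted once, with the 6 group means as samples and line and variant as additive terms in limma, 0 genes had an adjusted p below 0.05, the smallest being 0.393. At an unadjusted p below 0.05 this fit gave 1866 genes, or 11.6%, with 2 residual degrees of freedom.

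Most shared changes were small. The median shared change was 0.666 over the 1869 higher genes and -0.884 over the 529 lower genes. The smaller of the 2 line differences exceeded 1 log2 unit for 146 higher and 101 lower genes, or 7.81% and 19.1% of each set, and exceeded 2 for 14 and 14. At least 10 TPM in the higher clone of each line was reached by 1116 higher and 288 lower genes. Among all genes tested, the change differed between the lines for 35.1% in the test of the difference. Among the genes of the rule it differed for 24.0% of the higher and 31.8% of the lower ones.

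**Figure D2:**
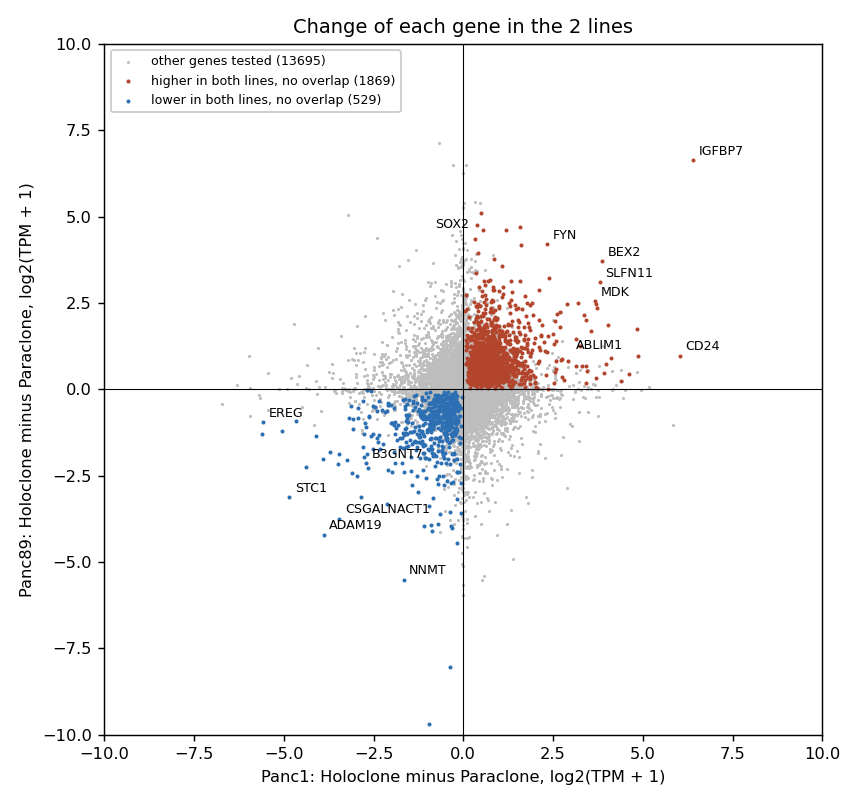
Holoclone minus Paraclone difference of each gene tested in Panc1 (horizontal axis) and in Panc89 (vertical axis), both as log2(TPM + 1). Red and blue points are the 1869 genes higher and 529 genes lower without overlap in both lines, and grey points are all other genes tested. IGFBP7 stands alone at the upper right, with ADAM19, STC1 and CSGALNACT1 at the lower left, and grey points fill the quadrants of opposite directions. The lowest blue points, KRT81 (-9.69 in Panc89) and PSCA (-8.04), were below the level at which genes were named.

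Leading genes were taken among those that reached an average of 10 TPM, in both Panc1 and Panc89, in whichever clone was higher. IGFBP7, a secreted protein of the insulin-like growth factor binding family, had the largest shared change of all higher genes. It reached 68.6, 127 and 75.2 TPM in the 3 Panc1 Holoclone libraries and 0.0263, 0.0586 and 0.0363 TPM in the Paraclone libraries. In Panc89 it was at 322, 464 and 387 TPM in Holoclone and 2.60, 1.77 and 5.03 TPM in Paraclone cells. The difference was 6.4 log2 units in Panc1 and 6.63 in Panc89, with a shared change of 6.51 ± 0.185 (SE, 3 libraries per group, limma adjusted p = 2.28e-12). Parental cells differed between the lines, at 2.54 to 3.22 TPM in Panc1 and 90.1 to 128 TPM in Panc89, so they lay nearer to the Holoclone level only in Panc89.

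MDK, the heparin-binding growth factor midkine, was abundant in Holoclone cells of both lines. It was at 579, 597 and 581 TPM in Panc1 Holoclone and 31.0, 45.1 and 65.0 TPM in Paraclone cells, and at 1314, 1258 and 1080 against 184, 186 and 259 TPM in Panc89. The shared change was 3.11 ± 0.15 (limma adjusted p = 5.97e-10). Parental cells of both lines were close to the Holoclone level or between, at 477 to 610 TPM in Panc1 and 591 to 794 TPM in Panc89.

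SLFN11, a Schlafen protein that blocks stalled replication forks, was at 16.2, 17.1 and 13.1 TPM in Panc1 Holoclone cells and at most 0.237 TPM in Paraclone cells. In Panc89 it was at 38.7, 8.34 and 7.38 TPM against 0.405, 1.93 and 0.177 TPM. Its shared change was 3.45 ± 0.33 (limma adjusted p = 8.59e-07), although the first Panc89 Holoclone library stood well above the other 2. MACROH2A2, which encodes a macroH2A histone variant, ranged over 36 to 52.3 TPM in Panc1 Holoclone and 0.53 to 0.813 TPM in Paraclone cells, and over 26.9 to 35.4 against 5.85 to 12.2 TPM in Panc89. Its change was larger in Panc1, by 3.07 log2 units (limma adjusted p of the difference between lines = 1.47e-06).

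BEX2, a small protein encoded on the X chromosome, had a shared change of 3.79 ± 0.61 (limma adjusted p = 0.000133) with wide spread between passages. Its Panc89 Holoclone libraries were at 17.4, 61.6 and 96.2 TPM and the Paraclone libraries at 7.41, 0.567 and 2.81 TPM. FYN, a Src family kinase, was at 24.0 to 31.6 TPM in Panc1 Holoclone against 1.88 to 7.29 TPM in Paraclone cells, and at 29.4 to 61.4 against 1.07 to 1.89 TPM in Panc89 (shared change 3.27 ± 0.26, limma adjusted p = 1.34e-07). The tyrosine phosphatase PTPN13 (shared change 3.04), the actin-binding protein ABLIM1 (2.91) and PGAP4, a transferase that modifies GPI anchors (2.71), followed. ABLIM1 differed between the lines by 3.88 log2 units, being changed by 4.86 in Panc1 and 0.97 in Panc89.

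GDF15, a stress-induced secreted factor of the TGF-beta family, was at 955, 772 and 700 TPM in Panc1 Holoclone and 187, 443 and 516 TPM in Paraclone cells. In Panc89 it was at 262, 759 and 1041 TPM against 37.2, 7.05 and 45.8 TPM. The shared change was 2.90 ± 0.47 (limma adjusted p = 0.000138), while the Panc1 difference of 1.19 did not pass (limma adjusted p = 0.177). The microRNA gene MIR3189 lies within GDF15 and was 2.89 higher; reads of the 2 genes may not be separable. NIBAN1, a protein induced under stress, had a shared change of 2.75 ± 0.35 (limma adjusted p = 1.61e-05), with 22.2 to 32.6 TPM in Holoclone and 0.779 to 2.48 TPM in Paraclone cells of Panc1, and 33.4 to 110 against 7.92 to 22.9 TPM in Panc89.

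By the smaller of the 2 line differences, the genes added included SYBU (syntabulin, which links vesicles to kinesin), the neutral amino acid transporter SLC1A4, the WNT receptor FZD6, the lysosomal membrane protein LAMP3 and MFGE8, a secreted protein that bridges phagocytes to dying cells. Their shared changes ranged from 2.14 for LAMP3 to 2.63 for MFGE8. FZD6 was at 42.9, 44.3 and 51.2 TPM in Panc1 Holoclone against 4.98, 6.23 and 7.89 TPM in Paraclone cells, and at 67.9, 63.5 and 78.2 against 15, 25.1 and 18.3 TPM in Panc89. LAMP3 varied most between passages, from 10.5 to 99.1 TPM within Panc89 Holoclone cells, and its Panc1 difference of 1.78 did not pass (limma adjusted p = 0.102).

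**Figure D3:**
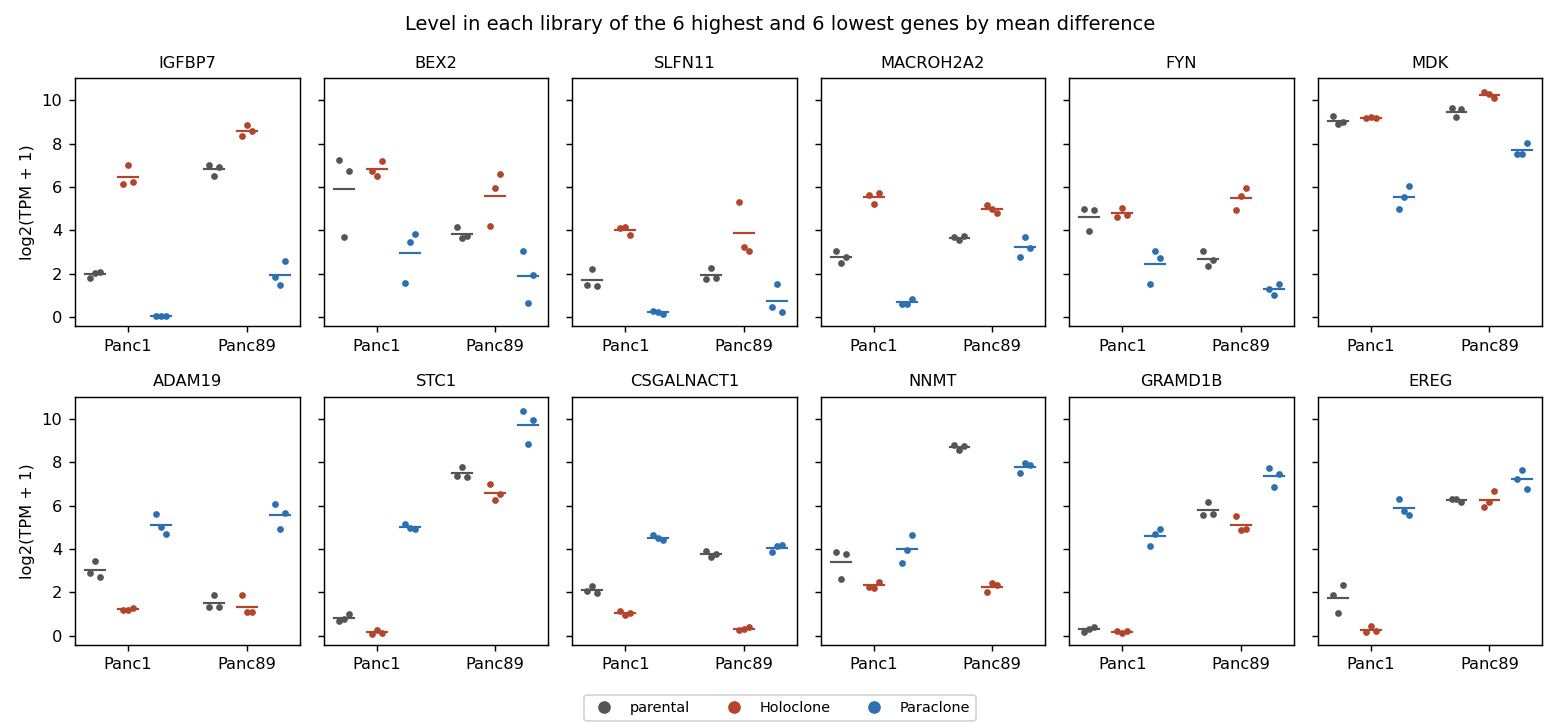
Level of 12 genes in every library as log2(TPM + 1), the 6 with the highest (top row) and the 6 with the lowest (bottom row) shared change among genes whose higher clone averaged 10 TPM or more in both lines. Each point is a library, each line a group mean, in grey for parental, red for Holoclone and blue for Paraclone cells, with Panc1 on the left and Panc89 on the right of each panel. Red and blue points do not overlap in either line, whereas grey points lie at the Holoclone level for MDK in Panc1, at the Paraclone level for CSGALNACT1 in Panc89 and between them for IGFBP7 in both lines.

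Among lower genes at this level of expression, ADAM19, a membrane-bound metalloprotease, fell furthest, while KRT81 (-5.32) and PSCA (-4.21), below 10 TPM in both Panc1 clones, had lower shared changes. ADAM19 was at 1.27, 1.30 and 1.46 TPM in Panc1 Holoclone and 48.4, 31.3 and 25.1 TPM in Paraclone cells, and at 2.64, 1.12 and 1.13 against 66.5, 29.5 and 48.9 TPM in Panc89. The shared change was -4.04 ± 0.22 (limma adjusted p = 1.99e-09), and the 2 lines differed by only -0.32 (limma adjusted p of the difference = 0.617). Parental cells were nearer to the Holoclone level in both lines, at 5.59 to 9.81 TPM in Panc1 and 1.53 to 2.74 TPM in Panc89.

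STC1, the secreted glycoprotein stanniocalcin, was at 0.0553 to 0.200 TPM in Panc1 Holoclone against 28.9 to 34.3 TPM in Paraclone cells, and at 75.1 to 127 against 461 to 1314 TPM in Panc89 (shared change -3.98 ± 0.20, limma adjusted p = 9.70e-10). CSGALNACT1, which starts chondroitin sulfate chains, was at 1.23, 0.966 and 1.09 TPM in Panc1 Holoclone against 24.4, 21.5 and 20.0 TPM in Paraclone cells. In Panc89 it was at 0.203, 0.235 and 0.311 against 13.6, 16.5 and 17.2 TPM, giving the smallest error of the leading genes (shared change -3.59 ± 0.09, limma adjusted p = 8.19e-13). Parental Panc89 cells, at 11.6 to 13.8 TPM, were close to the Paraclone cells for this gene, and parental Panc1 cells, at 2.99 to 3.89 TPM, to the Holoclone cells.

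NNMT, which methylates nicotinamide, fell mainly in Panc89, from 178, 252 and 234 TPM in Paraclone to 3.08, 4.35 and 4.13 TPM in Holoclone cells. In Panc1 it was at 9.33, 14.3 and 23.9 against 3.81, 3.57 and 4.67 TPM, and the changes differed by 3.85 log2 units (limma adjusted p = 7.09e-06). EREG, the EGF receptor ligand epiregulin, showed the reverse weighting. It was at 77.2, 52.1 and 46.4 TPM in Panc1 Paraclone cells and at most 0.382 TPM in Holoclone cells, but at 149, 198 and 109 against 60.7, 71.4 and 100.0 TPM in Panc89, and the changes differed by 4.62 (limma adjusted p = 6.10e-07). GRAMD1B, a sterol transfer protein (shared change -3.31), the calcium-binding proteins S100A16 (-3.12) and S100A4 (-2.74), the long non-coding RNA LINC01843 (-2.98), the adhesion protein AMIGO2 (-2.82), the lipase inhibitor ANGPTL4 (-2.76) and GLIPR1 (-2.76) completed the list by mean difference.

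S100A4, often used as a mesenchymal marker, was at 64.8, 94.0 and 69.1 TPM in Panc1 Holoclone against 608, 592 and 577 TPM in Paraclone cells, and at 8.89, 5.73 and 4.09 against 33.9, 45.1 and 38.5 TPM in Panc89. INHBA, a subunit of activin A, was at 0.453 to 1.21 TPM against 13.3 to 17 TPM in Panc1 and at 10.7 to 12.5 against 35.2 to 74.4 TPM in Panc89 (shared change -2.64), and its change was larger in Panc1 by 1.2 (limma adjusted p of the difference = 0.00691). TSC22D1, a leucine zipper protein induced by TGF-beta, was at 9.42 to 11.3 against 41.6 to 42.6 TPM in Panc1 and 71.1 to 76.0 against 254 to 414 TPM in Panc89 (shared change -2.02 ± 0.10, limma adjusted p = 5.14e-10). TNFRSF6B, a decoy receptor for Fas ligand (-2.47), the glycosyltransferase B3GNT7 (-2.43), UPK3B (-2.73) and the calcium pump ATP2B4 (-2.36) were the others with the largest smaller difference. Each of the leading genes named so far, higher and lower, met the rule under all 3 scalings.

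To show what lies before these genes, the 250 bases upstream of the RefSeq start (build GRCh38.p14) are given for 3 of them. They are the first leading genes, at most 2 in each direction, whose window touched neither the gene itself nor any exon of the GENCODE annotation, and they are written 5′ to 3′ on the strand of the gene. NIBAN1 was higher (chr1:184974509-184974758, minus strand), and ADAM19 (chr5:157575776-157576025, minus strand) and EREG (chr4:74364895-74365144, plus strand) were lower. Capitals mark matches, on either strand, to the motifs listed after the sequences.
NIBAN1: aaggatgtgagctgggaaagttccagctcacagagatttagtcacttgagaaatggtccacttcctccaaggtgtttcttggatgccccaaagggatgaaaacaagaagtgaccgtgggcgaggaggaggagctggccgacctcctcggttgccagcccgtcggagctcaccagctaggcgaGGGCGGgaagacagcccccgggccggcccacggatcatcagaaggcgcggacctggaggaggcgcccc
ADAM19: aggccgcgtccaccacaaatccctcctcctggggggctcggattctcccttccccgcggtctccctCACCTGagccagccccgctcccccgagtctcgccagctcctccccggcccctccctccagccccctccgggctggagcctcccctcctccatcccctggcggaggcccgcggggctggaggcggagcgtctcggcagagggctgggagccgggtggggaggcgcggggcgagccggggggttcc
EREG: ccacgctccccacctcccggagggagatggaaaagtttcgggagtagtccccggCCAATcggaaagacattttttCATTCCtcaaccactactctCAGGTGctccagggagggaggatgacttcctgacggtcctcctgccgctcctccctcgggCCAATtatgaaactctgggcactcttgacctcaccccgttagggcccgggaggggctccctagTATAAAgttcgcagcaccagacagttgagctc
The NIBAN1 window held 1 GC box. The ADAM19 window held 1 ZEB E-box, and the EREG window held 1 TEAD site, 1 ZEB E-box, 2 CCAAT boxes and 1 TATA box.

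The motifs were searched in the 300 bases from 250 before to 50 after the RefSeq start of 1444 higher genes, 402 lower genes and 11821 of all genes tested, the rest having no entry. The ETS core (CCGGAAG) was present in 21.9% of higher and 8.21% of lower genes, against 18.4% of all genes tested and 10.7% of all 27305 promoters. The AP-1 site (TGANTCA) was present in 3.67% of higher and 6.97% of lower genes, against 4.93% of all genes tested and 7.76% of all promoters. The TATA box (TATAAA) was found in 6.02% and 8.96%, against 6.04% of all genes tested and 12.0% of all promoters. The TEAD site (GGAATG, 9.97% and 12.2%), the ZEB E-box (CACCTG, 17.5% and 17.4%), the CCAAT box (CCAAT, 35.0% and 35.1%) and the GC box (GGGCGG, 68.8% and 70.6%) differed less between the sets. Their shares over all genes tested were 11%, 18.8%, 36.4% and 69%, and over all promoters 14%, 20.6%, 35.7% and 44.6%. These shares are descriptions of letters in a window and were not tested.

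In the following, lists of genes are described by how many of their tested members met the rule. For comparison, 11.6% of all genes tested were higher and 3.29% were lower in both lines. The lists were written by hand and are read beside these shares and beside the median shared change of all genes, 0.16. Among list genes named below, BMP2, BMP7, CDH11, CNN1, COL13A1, DLC1, DLL1, INHBB, MSI1 and SERPINB9 averaged under 5 TPM in both clones of at least 1 line.

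The amino acid stress list stood out on the higher side. It holds targets of ATF4, the transcription factor that raises amino acid synthesis and transport when the integrated stress response is active. Of 30 genes, 13 were higher and 0 lower in both lines, and the median shared change was 1.04. After either rescaling 6 of them met the rule, 0 genes were lower, and the median stayed at 0.84 or above. The 13 higher genes with the TPM as deposited included the large neutral amino acid transporter SLC7A5 and its partner SLC3A2, asparagine synthetase ASNS, and the serine synthesis enzymes PHGDH, PSAT1 and PSPH.

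SLC7A5 was at 299, 460 and 345 TPM in Panc1 Holoclone against 213, 229 and 191 TPM in Paraclone cells, and at 2518, 2818 and 2854 against 543, 529 and 562 TPM in Panc89 (shared change 1.55 ± 0.12, limma adjusted p = 1.04e-07). PHGDH was at 382, 348 and 355 against 65.9, 200 and 243 TPM in Panc1 and at 589, 562 and 537 against 359, 116 and 274 TPM in Panc89 (shared change 1.30 ± 0.29, limma adjusted p = 0.00171). ASNS was 1.34 higher, but its Panc1 difference of 0.86 did not pass (limma adjusted p = 0.0858). HSPA5, a chaperone of the endoplasmic reticulum, and the mitochondrial folate enzyme MTHFD2 changed by 1.09 and 0.84 and met the rule only with the TPM as deposited, as did SLC3A2 and PSAT1. ATF4 itself changed by 0.23 and did not pass (limma adjusted p = 0.164).

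These genes also varied together between passages. Of the 13 genes, 12 were lowest in the second library of the parental Panc1 group, 11 were lowest in the first of the Panc89 Holoclone group, and 10 were lowest in the first Panc1 Paraclone and in the second Panc89 Paraclone library. Their median level was 8.19 to 8.42 in Panc1 Holoclone and 6.71 to 7.65 in Panc1 Paraclone libraries, and 8.01 to 8.85 against 6.03 to 7.26 in Panc89. Parental Panc1 libraries ranged from 7.35 to 8.42 and parental Panc89 libraries from 7.58 to 7.82. The part of culture state in this difference was not tested, and 5 of the 13 genes lie on stretches of chromosomes 9, 11 and 16 described further on, a split made after the values were seen.

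Of 54 chromatin regulators, 14 were higher and 0 lower in both lines, with a median shared change of 0.35. After upper quartile scaling 9 were higher and 1 lower, and with the median of ratios 7 and 1. The acetyltransferase CREBBP rose most, with 32.7 to 39.1 TPM in Holoclone and 13.3 to 17.7 TPM in Paraclone cells of Panc1 and 14.9 to 28.9 against 6.67 to 7.47 TPM in Panc89 (shared change 1.31 ± 0.14, limma adjusted p = 3.11e-06). The DNA demethylase TET3 (0.86) and its relative TET2 (0.84), the chromatin remodellers CHD9 (0.83) and ARID1A (0.59) and the histone methyltransferases KMT2A (0.64) and NSD3 (0.63) changed by less, and ASH1L (0.19) met the rule without passing the test (limma adjusted p = 0.0915). Of 458 ZNF zinc finger genes, 66 were higher and 3 lower, but their median of 0.15 was that of all genes within 0.01, and after rescaling 35 or 33 were higher and 11 or 13 lower.

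Of 20 PDAC drivers and tumour suppressors, 5 were higher and 0 lower in both lines. They included the DNA damage kinase ATM (0.60), the chromatin genes ARID1A (0.59) and KDM6A (0.59) and the kinase BRAF (0.52). ARID1A was at 65.5, 72.8 and 67 TPM in Panc1 Holoclone against 39.2, 34.8 and 39.2 TPM in Paraclone cells and at 27.6, 23.3 and 26 against 19, 20.8 and 20.6 TPM in Panc89 (shared change 0.59 ± 0.07, limma adjusted p = 1.11e-05). After rescaling 3 or 2 of the list were higher and 2 were lower, so the one-sided count holds only for the TPM as deposited, whereas ARID1A met the rule under all 3 scalings.

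Integrins and laminins, a group of adhesion receptors and matrix proteins, were the list with the largest share on the lower side. Of 28 genes, 7 were lower and 1 was higher in both lines, and after either rescaling 9 were lower and 1 higher. The median shared change was -0.62. The fibronectin receptor chain ITGA5 was at 45.0, 44.6 and 39.8 against 269, 203 and 165 TPM in Panc1 and at 40.2, 32.7 and 36.9 against 134, 85.7 and 123 TPM in Panc89 (shared change -1.92 ± 0.13, limma adjusted p = 1.97e-08). ITGB2 changed by -1.72 and the common beta chain ITGB1 by -0.49. LAMC3, the higher gene, had a Holoclone mean of only 0.247 TPM in the line where it was lower.

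Matrix and mesenchymal genes were split, with 7 of 38 lower and 3 higher. The collagen genes COL4A1 (-2.23), COL6A1 (-1.63), COL6A2 (-1.37) and COL13A1 (-2.79), the lysyl oxidase LOXL2 (-1.71), S100A4 and VIM were lower. The matrix protein FBLN1 (2.33), the mesenchymal cadherin CDH11 (2.05) and CNN1 (1.05) were higher. VIM, vimentin, shows how the rule treats low genes: it was at 2021, 2854 and 2520 TPM in Panc1 Holoclone against 5044, 4320 and 3592 TPM in Paraclone cells, but at 0.0618 to 0.176 against 0.222 to 0.456 TPM in Panc89, where the gene was near 0 throughout and its difference of -0.28 did not pass (limma adjusted p = 0.168).

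Among EMT regulators, SNAI1, a repressor of E-cadherin, was lower and the epithelial splicing factors ESRP1 and ESRP2 were higher, out of 13 genes tested. The 2 higher genes are 15.4% of the list, against 11.6% of all genes tested. The list as a whole showed no common direction, with a median shared change of 0. The test called 5 of its genes higher and 4 lower. SNAI1 was at 9.52, 8.20 and 9.45 TPM in Panc1 Holoclone against 16.9, 26.1 and 29.2 TPM in Paraclone cells, and at 0.935, 0.857 and 1.11 against 9.95, 9.49 and 11.1 TPM in Panc89 (shared change -1.90 ± 0.13, limma adjusted p = 2.09e-08). Parental Panc89 cells had more SNAI1 than either clone, at 25.4 to 30.3 TPM. ESRP2 changed by 1.69 ± 0.12 (limma adjusted p = 3.22e-08) and ESRP1 by 0.98, the latter with a Holoclone mean of 0.749 TPM in the line where it was lower. Of 30 epithelial junction genes 5 were higher and 0 lower, among them CTNND1 (0.65) and MARVELD2 (0.72), and after rescaling 3 were higher and 1 lower.

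Of 31 proteases and inhibitors, 4 were lower and 1 higher in both lines, while the median shared change of the list was 0.03 and the test called 9 of its genes higher and 11 lower. Those that met the rule were ADAM19, the inhibitor TIMP1 (-1.67), the urokinase receptor PLAUR (-1.42) and MMP2 (-1.33) on one side, and SERPINB9 (1.41) on the other. TIMP1 was at 127 to 184 TPM in Panc1 Holoclone against 241 to 283 TPM in Paraclone cells, and at 106 to 122 against 369 to 1012 TPM in Panc89.

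Signalling pathways gave mixed counts. Of 25 Notch pathway genes 6 were higher and 0 lower, led by the ligands DLL1 (1.31) and JAG2 (1.15), and 4 or 3 were higher after rescaling. Of 29 YAP and TEAD targets 7 were higher, with CCN2 (1.85), AMOTL1 (1.99) and AJUBA (1.42) among them, and 3 were lower, namely NT5E (-1.51), IGFBP3 (-1.49) and DLC1 (-1.48). After upper quartile scaling this count was 6 against 6. CCN2 differed in Panc89, at 188, 102 and 62.8 against 8.73, 22.0 and 12.9 TPM, while its Panc1 difference of 0.82 did not pass (limma adjusted p = 0.258). TGF-beta signalling held 4 lower genes, INHBA, SMAD3 (-0.77), SMAD6 (-0.77) and BMP2 (-0.85), and 2 higher ones, INHBB (2.05) and BMP7 (1.93), of 32.

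In the WNT list, 5 of 42 genes were higher and 2 lower, with the receptor FZD6 (2.25) and the feedback inhibitor NKD2 (2.31) higher and PORCN, which acylates WNT proteins (-1.18), lower. The higher share, 11.9%, was near the 11.6% of all genes tested, and after either rescaling 3 were higher and 3 lower. Of 35 MAPK feedback and AP-1 genes 2 were higher and 3 lower. ETV5 changed by 1.07, SPRY2 by -1.20 and EPHA2 by -0.84. EGR1, an immediate early gene, met the rule with a shared change of 0.77 but did not pass the test (limma adjusted p = 0.398), its parental Panc1 libraries ranging from 2.71 to 375 TPM. In the insulin-like growth factor axis, IGFBP2 changed by 2.86 and IGF2BP1 by 0.98 beside IGFBP7, and IGFBP3 by -1.49.

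Genes of glycolysis and of sterol synthesis were more often lower than higher. Of 41 glycolysis and hypoxia genes 6 were lower and 2 higher, with the lactate exporter SLC16A3 (-1.16), the glucose transporters SLC2A1 (-0.79) and SLC2A3 (-1.08) and the collagen hydroxylase P4HA2 (-1.30) lower, and ADM, adrenomedullin (1.5), and SLC16A1 (0.66) higher. Of 31 cholesterol and fatty acid genes 4 were lower and 0 higher, among them the sterol sensor partner INSIG1 (-1.47), MSMO1 (-0.98) and NSDHL (-0.49), and 9 were lower after either rescaling. Heme oxygenase HMOX1 (-1.58) and ferritin heavy chain FTH1 (-1.41) were lower among 32 NRF2 targets, while NFE2L2, the gene for NRF2 itself, was higher (0.88). The list as a whole did not fall, as the test called 12 of its genes higher and 7 lower. Its median shared change was 0.27, with medians of -0.28 in Panc1 and 0.59 in Panc89. FTH1 was at 2293 to 4072 TPM in Panc1 Holoclone against 5401 to 11297 TPM in Paraclone cells and at 5285 to 8904 against 15424 to 23521 TPM in Panc89.

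Genes of secretory and classical PDAC cells went both ways. The pioneer factor FOXA1 was lower in both lines (shared change -2.22 ± 0.17, limma adjusted p = 7.48e-08), at 0.850 to 1.04 against 5.83 to 8.72 TPM in Panc1 and at 3.37 to 9.38 against 29.1 to 33.5 TPM in Panc89. Its relative FOXA2 was higher, at 30 to 31.7 against 22.1 to 27.7 TPM in Panc1, where the difference of 0.37 did not pass (limma adjusted p = 0.178), and at 37.0 to 71.3 against 0.783 to 1.30 TPM in Panc89. In this list of 25 genes, 5 were lower and 3 higher. CEACAM1 changed by -1.91, and TFF1, CEACAM6 and PSCA met the rule with Paraclone means of at most 0.638 TPM in the line where each was lower.

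Of 20 stem cell markers, CD24, SOX2 and MSI1 were higher and 0 were lower with the TPM as deposited, and 1 was lower after rescaling. These 3 are 15% of the list, against 11.6% of all genes tested. The list as a whole went both ways, with 8 genes called higher and 7 lower by the test. Its median shared change was 0.12, against 0.16 over all genes. CD24, a surface glycoprotein, was at 99.7, 112 and 95.8 TPM in Panc1 Holoclone against 0.830, 0.443 and 0.497 TPM in Paraclone cells, and at 7.72, 7.01 and 7.80 against 3.89, 3.68 and 2.57 TPM in Panc89. SOX2, a pluripotency factor, was at 64.3, 32.5 and 17.3 TPM in Panc89 Holoclone against 0.252, 0.909 and 0.981 TPM in Paraclone cells, but did not exceed 0.376 TPM in Panc1, where its difference of 0.33 did not pass (limma adjusted p = 0.492). Both genes thus met the rule with very unequal changes, 5.06 log2 units apart for CD24 and 4.02 for SOX2.

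Other lists, apart from clustered protocadherins, held few or no genes of the rule. This was so for 48 cell cycle genes (0 and 0, median shared change 0.68), 42 interferon-stimulated genes (0 and 0), 41 replication-dependent histones (0 and 0, with 1 lower after rescaling) and 13 mitochondrially encoded genes (0 and 0). The cell cycle median was nevertheless raised in each line, at 0.62 in Panc1 and 0.8 in Panc89, against 0.19 and 0.09 over all genes tested. After rescaling, the median shared change of these genes was 0.51 or 0.48. With the TPM as deposited, the test called 5 of the 48 higher and 0 lower, against 33.0% and 13.0% of all genes tested. Cytosolic ribosomal protein genes gave 2 higher and 3 lower of 83, and 0 and 9 after either rescaling. Nuclear genes of oxidative phosphorylation gave 6 higher and 2 lower of 74, and after rescaling 3 higher and 9 or 11 lower. Inflammatory genes gave 2 lower of 32, among them IL18 (-1.38), and keratins 1 lower of 18. HLA and antigen processing genes gave 1 higher of 19, HLA-F (0.81), and small nucleolar RNA host genes 1 higher of 30. Clustered protocadherins gave 3 higher of 11, or 27.3%, and 1 higher after either rescaling, with a median shared change of -0.03.

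Counts over lists also moved with single libraries. Fewer libraries make the rule easier to meet, so counts rose or stayed as they were when 1 was left out. The amino acid stress list then had 13 to 17 higher genes and the chromatin list 14 to 17. The integrin and laminin list had 7 to 11 lower genes, the highest without the second Panc89 Paraclone library, which also raised oxidative phosphorylation from 6 to 13 higher and the matrix list from 3 to 6 higher genes. Without the first Panc89 Holoclone library, lower genes rose from 4 to 10 for cholesterol and fatty acid synthesis, from 6 to 10 for glycolysis and hypoxia, from 2 to 6 for oxidative phosphorylation, from 3 to 5 for YAP and TEAD targets and from 3 to 10 for ZNF genes. Interferon-stimulated genes had 5 lower genes without the first Panc89 Paraclone library and 4 without the third Panc89 Holoclone library. Without the first Panc89 Paraclone library, epithelial junction genes went from 5 to 8 higher. Cytosolic ribosomal proteins went from 3 to 6 lower without the first Panc1 Holoclone, the first Panc1 Paraclone or the second Panc89 Paraclone library, and WNT pathway genes from 2 to 4 lower without the third Panc1 Holoclone or the first Panc89 Holoclone library. MAPK feedback and AP-1 genes went from 2 to 4 higher without the second Panc1 Holoclone or the third Panc1 Paraclone library, inflammatory genes from 2 to 4 lower without the third Panc1 Paraclone or the second Panc89 Paraclone library, and small nucleolar RNA host genes from 1 to 4 higher without the first Panc89 Holoclone library. The median of the cell cycle list was 0.42 without the first Panc89 Holoclone or the first Panc89 Paraclone library and 1.05 without the second Panc89 Paraclone library.

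**Figure D4:**
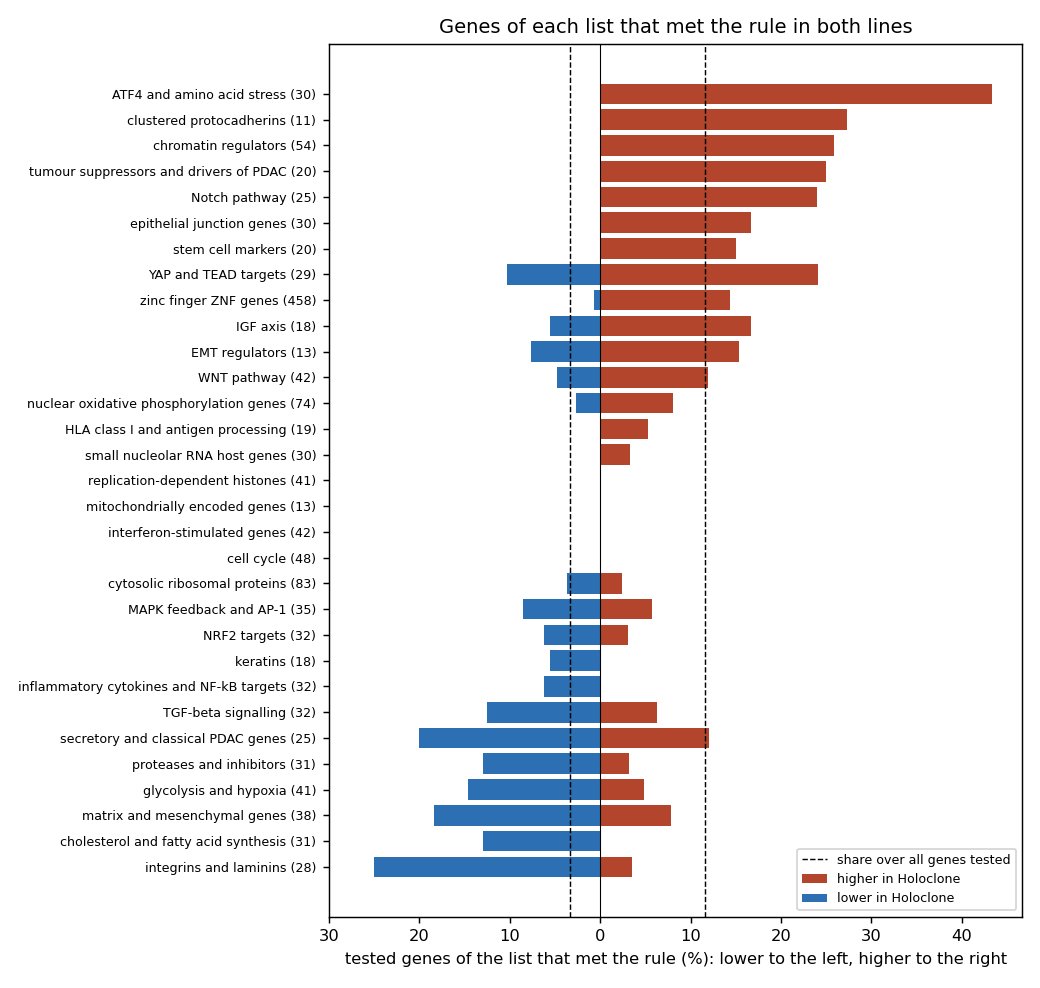
Share of the tested genes of each of 31 lists that were higher (red, to the right) or lower (blue, to the left) without overlap in both lines, with the number tested in parentheses. Dashed lines mark the shares over all genes tested, 11.6% higher and 3.29% lower. The amino acid stress list reaches 43.3% on the higher side, and integrins and laminins reach 25% on the lower side.

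Parental cells lay at different places between the clones in the 2 lines. On a scale with 0 at the Paraclone and 1 at the Holoclone mean, the median place of the parental mean over the 1869 higher genes was 0.683 in Panc1 and 0.375 in Panc89. The parental mean was nearer to the Holoclone mean for 71.3% of these genes in Panc1 and for 37.5% in Panc89. For the 529 lower genes the shares were 58.6% and 53.9%. The same held for genes chosen on a single line: among genes higher without overlap in Panc1 the share was 70.2%, and among those higher in Panc89 it was 38.6%, and over all genes tested it was 61.9% and 47.4%. Of the higher genes, 503 had parental cells nearer to Holoclone in both lines, 340 nearer to Paraclone in both, 829 nearer to Holoclone in Panc1 alone and 197 in Panc89 alone. All these places use the TPM as deposited, and the part of scaling in them was not tested. Upper quartile scaling divided Panc1 parental libraries by 1.026 to 1.09, Holoclone by 1.096 to 1.117 and Paraclone by 0.8969 to 0.9988. In Panc89 it divided parental libraries by 0.9144 to 0.9753, Holoclone by 0.9844 to 1.095 and Paraclone by 0.9051 to 1.003.

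The shared genes also differed between the parental lines. Parental Panc89 and Panc1 cells differed in 66.0% of all genes tested, in 69.3% of the higher genes and in 78.5% of the lower genes (limma adjusted p under the threshold). Among the higher genes 394 were higher and 902 lower in parental Panc89, and among the lower genes 246 were higher and 169 lower. Over all genes tested, 4421 were higher and 6202 lower in parental Panc89.

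Position in the genome set some of the shared genes apart. By GENCODE release 44, 1851 of the higher and 520 of the lower genes had a single position. Higher genes made up 24.4% of the genes tested on chromosome 11 (218 of 895), 21.8% on chromosome 16 (159 of 731) and 18.8% on chromosome 9 (121 of 644), against 11.7% of all genes with a position. On the remaining chromosomes the share was 9.97%, from 4.90% on chromosome 22 upward. When only genes that met the rule under all 3 scalings were counted, chromosome 11 held 12.3%, chromosome 16 held 11.2% and chromosome 9 held 9.01%, against 5.66% over all chromosomes and 4.77% without these 3. Lower genes were fewer there, at 2.35%, 1.37% and 1.86%, against 3.28% of all genes with a position.

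The differences on these chromosomes were broad. The median Holoclone minus Paraclone difference on chromosome 11 was 0.418 in Panc89 and 0.271 in Panc1, and on chromosome 16 it was 0.382 and 0.262, whereas off the 3 chromosomes it was 0.0648 in Panc89 and 0.180 in Panc1. In windows of 20 Mb, chosen after these shares were seen, the Panc89 median on chromosome 11 was between 0.287 and 0.733 in each of 7 windows. On chromosome 16 it was 0.0386 in the first 20 Mb and 0.423 to 0.596 beyond. On chromosome 9 it was -0.154 and -0.370 in the first 2 windows and 0.377 to 0.441 in the 4 windows from 60 Mb on, the window between them holding 6 genes. The shares of higher genes followed, at 5.17% and 5.36% in the first 2 windows of chromosome 9 and 15.2% to 26.4% from 60 Mb on.

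Set against the parental cells, the clone that stood apart differed between these stretches. On chromosome 16 from 20 Mb, the 3 Panc89 Holoclone libraries had a median 0.43 to 0.51 above the parental mean, relative to the genes off the 3 chromosomes, and the Paraclone libraries -0.04 to 0.04. On chromosome 9 from 60 Mb, the Panc89 Paraclone libraries lay between -0.36 and -0.32 and the Holoclone libraries between 0.01 and 0.03. On chromosome 11 the Panc89 Holoclone libraries lay 0.21 to 0.29 above and the Paraclone libraries at -0.07. In Panc1 the corresponding values were between -0.07 and 0.10 on all 3 stretches. DNA was not measured, and the part of chromosome position in the changes of single genes was not tested. SLC7A5 lies on chromosome 16 beyond 20 Mb, CREBBP on the first 20 Mb of it and MDK on chromosome 11, while IGFBP7 and ADAM19 lie on none of the 3. Of the leading genes, PGAP4 (chromosome 9, beyond 60 Mb), NNMT and GRAMD1B (chromosome 11) also lie on the stretches, the latter 2 being lower genes. Of the 13 higher genes of the amino acid stress list, 5 lie there, namely SLC7A5 and HERPUD1 on chromosome 16, SLC3A2 on chromosome 11, and PSAT1 and HSPA5 on chromosome 9. They are all 5 tested genes of that list on the stretches, with a median shared change of 1.15, and off the stretches 8 of 25 genes were higher, with a median of 0.78.

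**Figure D5:**
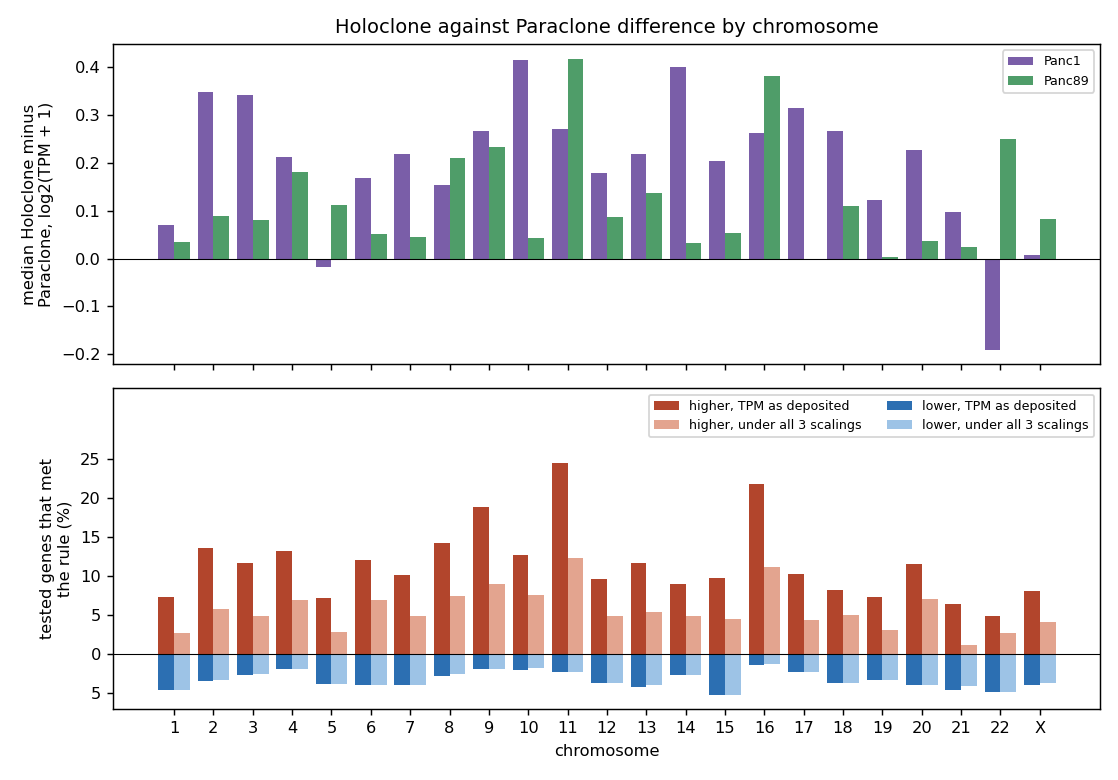
Upper panel: median Holoclone minus Paraclone difference over the genes tested on each chromosome, as log2(TPM + 1), in Panc1 (purple) and Panc89 (green). Lower panel: share of the genes tested on each chromosome that were higher (red, above 0) or lower (blue, below 0) without overlap in both lines, dark for the TPM as deposited and light for genes that met the rule under all 3 scalings. Chromosomes 11 and 16 have the largest green bars, at 0.418 and 0.382, and the largest red bars, at 24.4% and 21.8%.

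Genes of the rule were more often protein-coding than the genes tested, at 92.4% of the higher and 90.6% of the lower genes against 84.3%. The genomic span of the higher genes had a median of 38.7 kb, against 26.1 kb for the lower genes and 27.8 kb for all genes tested. The GC content of the promoter windows had a median of 66.0%, 66.3% and 65.3%.

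At the edge of the rule, RABL6, UBP1 and DMAC2L were just inside, with differences of 0.23 and 0.35, 0.63 and 0.48, and 0.97 and 0.19 in Panc1 and Panc89. ATP5MG (0.50 and 0.57), NR1D2 (0.91 and 0.47) and SUCLG2 (-0.98 and -0.38) fell just outside, the widest overlap being a gap of -0.000446 log2 units for SUCLG2. Leaving out 1 clone library at a time, the number of genes that met the rule was between 2474 and 3333, the highest without the second Panc89 Paraclone library.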

How the data were processed

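The mRNA of Panc1 and Panc89 parental, Holoclone and Paraclone cells was sequenced in 18 libraries, 3 passages in each of 6 groups, assigned to groups by the deposited labels. The authors used stranded paired-end libraries, kallisto 0.46.1 with Ensembl GRCh38 transcripts and tximport scaled TPM. Per the deposited table, values are given as log2 of TPM + 1 by gene symbol. On the linear scale the libraries total 985339 to 988066 TPM. TPM keep no read totals, so the depth and counting error of each value are unknown. Of 40266 symbols, 10923 were at 0 in every library.

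Differences were fitted with limma 3.58.1 in R 4.3.3 (lmFit, eBayes with trend) to 16093 genes that reached 1 TPM in 3 or more libraries, with a mean for each group. P-values were two-sided and adjusted over all genes by Benjamini-Hochberg. The fit was tested on simulated data. No count model was run, as the values are not counts. Fold changes on the log2(TPM + 1) scale understate those of low genes.

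Genes were named if they met the rule with a mean of 10 TPM in the higher clone of each line and were among the 12 highest or lowest by mean difference or the next 6 by the smaller difference. Each list added up to 3 genes per direction with at least 5 TPM, and further list genes that a sentence needed. Members, lists and tests were chosen with earlier results of these data known. Positions came from GENCODE 44 and promoter sequences from RefSeq (GRCh38.p14), matched by symbol. Promoters were found for 77.3% of the higher and 76.0% of the lower genes, below the 80% wanted for such a comparison, so the promoter shares cover only the matched genes. Alternatives were the pseudocount, the low-value filter, 2 scalings, the libraries in the fit, replicate blocks, a fold threshold, group means, an untrended prior and leaving out each clone library. The counts by chromosome under all 3 scalings and without 3 chromosomes, the lists without each library and the amino acid stress list by stretch were added after seeing the data. A few genes are not reported here.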

Additional observations from a re-analysis of the deposited data

Results flagged for a closer look

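The named genes below moved the same way in both lines, yet the size of their change differed between the lines by limma's test of the difference (adjusted p under 0.05), which called 35.1% of all genes tested. The value in parentheses is the Holoclone minus Paraclone difference in Panc89 less that in Panc1, on the log2(TPM + 1) scale.

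Among genes higher in Holoclone cells, the rise was larger in Panc89 for FOXA2 (4.39), SOX2 (4.02), GDF15 (3.41), NKD2 (2.92), ZNF880 (2.57), MIR3189 (2.56), FBLN1 (2.49), CCN2 (2.06), FYN (1.86), SLC3A2 (1.85), ZNF385A (1.64), SLC7A5 (1.54), PSAT1 (1.48), FJX1 (1.2), SLC16A1 (0.72) and CTNND1 (0.49). The rise was larger in Panc1 for ARID1A (-0.51), TET3 (-0.78), FZD6 (-0.88), MARVELD2 (-0.98), MDK (-1.13), AMOTL1 (-1.18), ZNF711 (-1.2), IGF2BP1 (-1.29), PTPN13 (-1.38), PGAP4 (-1.42), ESRP2 (-1.76), MFGE8 (-1.86), MACROH2A2 (-3.07), ABLIM1 (-3.88) and CD24 (-5.06).

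Among genes lower in Holoclone cells, the fall was larger in Panc1 for EREG (4.62), S100A16 (3.85), GRAMD1B (2.15), GLIPR1 (1.89), STC1 (1.72), IL18 (1.52), AMIGO2 (1.34), INHBA (1.2), COL4A1 (1.12), ZNF544 (1.00) and RPS4X (0.35). The fall was larger in Panc89 for SMAD3 (-0.70), SLC16A3 (-0.91), SNAI1 (-1.22), NT5E (-1.44), TIMP1 (-1.86) and NNMT (-3.85).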

How the results depend on the processing

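Under an adjusted p threshold joined with an absolute log2 fold change over 1, the shared change was called for 1256 genes in place of 7408, Panc1 for 1860 in place of 6006, Panc89 for 2124 in place of 5746, and 256 in place of 1550 genes were called the same way in both lines. With each cell variant counted once, 0 genes had a called shared change. Leaving out each clone library in turn, the shared change was called for 6512 to 8176 genes, Panc1 for 4763 to 6456, Panc89 for 4549 to 6600, both lines for 1185 to 1889, and 2474 to 3333 genes met the rule. Upper quartile and median-of-ratios scaling moved the share of higher genes among called shared changes from 71.7% to 52.6% and 48.8%. All other planned settings kept these counts within 1.5 times.

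Of 117 named genes, 0 changed the sign of the shared change under any setting run, but 23 no longer met the rule under at least 1 of the 2 rescalings and 94 met it under both. FAU and RPL7L1 lost the call under both rescalings and MAML1 under the median of ratios, 31 changed by less than the fold threshold, and 116 lost it with each variant counted once. EGR1 was called only in the fit of the clone libraries alone. The replicate numbers did not pair the samples: deviations of same-numbered clones of a line correlated at -0.318 to 0.19. With the replicate block within each line, the shared change was called for 6894 genes, and with the block over both lines for 7311. The depth of the libraries is unknown, and with 1 clone per type and line the clone cannot be told apart from the type.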
